A study of Homo sapiens with 6 samples.

Results

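Long noncoding RNAs are long transcripts that are not known to act by coding for protein. The 8 described here (NEAT1, MALAT1, TUG1, NORAD, OIP5-AS1, PVT1, CYTOR and DANCR) are often measured in cancer cells and were taken as a list of names. Each symbol was matched to an Ensembl gene identifier through GENCODE release 44, and all 8 were found among the 60612 genes listed in the deposited files. They were compared in HCT116, a widely used line from a human colorectal carcinoma, between 3 libraries of cells given a control lentivirus (LV-NC) and 3 libraries of cells given a lentivirus that carries SNORA28 (LV-SNORA28). SNORA28 belongs to the H/ACA small nucleolar RNAs, which guide the conversion of uridine to pseudouridine. Per the study's methods, cells were collected 72 h after infection. RNA was captured with oligo(dT), libraries were made by the dUTP method that keeps strand, and expression was given as FPKM, that is, fragments scaled by transcript length and by the mapped fragments of the library.

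The members act in different places in the cell. NEAT1 is the scaffold of paraspeckles, nuclear bodies that hold RNA-binding proteins, and MALAT1 is concentrated in nuclear speckles, where splicing factors are stored. MALAT1 and the long form of NEAT1 have a 3′ end that is made by RNase P at a tRNA-like structure in place of a poly(A) tail. Such ends leave oligo(dT) only A runs within the transcript to bind. Forms that do carry a tail, among them the short form of NEAT1, can be captured directly. NORAD is cytoplasmic and binds PUM2, an RNA-binding protein that represses mRNAs through a short sequence element. OIP5-AS1, also called cyrano, pairs with the microRNA miR-7 and marks it for decay. TUG1, PVT1, CYTOR and DANCR are linked to growth of tumour cells, with partners that include polycomb proteins and, for PVT1, the neighbouring gene MYC.

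NORAD carries this element many times in its own transcript, and its forms are shown because they are the known basis of its function. The search motif was TGTANATA, where N is any base. The single transcript of NORAD, 5401 bases in 1 exon on the minus strand at chr20:36045618-36051018 (GRCh38), held 15 matches in the sense direction and 1 on the opposite strand. Among the last 5401 bases of the 2325 canonical transcripts of tested genes that are at least that long, 2 held as many, 1 of which is NORAD, or 0.0860%. Of the 15 matches, 10 read TGTATATA, 4 read TGTAAATA and 1 read TGTACATA. The first started at base 819 of the transcript and the last at base 4657. In 3 places a pair of matches started 9 bases apart, and all other neighbouring starts were at least 101 bases apart. The lines below give 1 window of 30 bases for each form, in the direction of the transcript with the match in capitals, at chr20:36050182-36050211, chr20:36049702-36049731 and chr20:36049492-36049521 on the minus strand.
NORAD element 1: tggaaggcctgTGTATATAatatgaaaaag
NORAD element 3: aaatcacatttTGTAAATAcctttttgtta
NORAD element 5: tgtgtatatagTGTACATAaaggacagacg

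The window of element 5 also contains the match before it, since the pair stands 9 bases apart. No canonical transcript of the other members came near this density of 2.78 matches per kb. NEAT1 held 6 in the sense direction in 22743 bases, TUG1 held 2 in 7474 bases, and the canonical transcripts of MALAT1, OIP5-AS1, PVT1, CYTOR and DANCR held 0.

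The miR-7 site of OIP5-AS1 is shown with the microRNA because this pairing is the best known property of the RNA. The mature miR-7-5p sequence was taken from RefSeq (GRCh38.p14) and its seed, bases 2 to 8, is in capitals. The seed match, GTCTTCC, was found 3 times in the sense direction and 0 times on the opposite strand of the longest OIP5-AS1 transcript, of 8881 bases. At least 1 match was present in 49.4% of the 551 end regions of that length, so having at least 1 seed match is common. The share with 3 or more was not counted. In 1 of the 3 matches a further run of 14 bases could pair with the rest of the microRNA, and it lies at chr15:41300570-41300599 on the plus strand. Capitals in the OIP5-AS1 line mark the bases that can pair.
miR-7-5p: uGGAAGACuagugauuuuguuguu
OIP5-AS1 site: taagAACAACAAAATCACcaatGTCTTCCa

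This site is not in every transcript of the gene. A seed match, with or without the further run, was present in 31 of the 72 annotated OIP5-AS1 transcripts. The canonical transcript of 3231 bases in 6 exons had 0. Transcripts with the further run were not counted. The gene-level value therefore sums forms with and without the site.

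The A runs of NEAT1 and MALAT1 are shown because the RNA was captured with oligo(dT). In NEAT1, which spans chr11:65422774-65445540 on the plus strand and has a canonical transcript of 22743 bases in 1 exon, the longest run was 22 A at base 18046. In MALAT1, at chr11:65497640-65508073 on the same strand with 10434 bases in 1 exon, it was 13 A at base 8459. A run of at least 13 A was found in 42.2% of the 315 end regions of the length of MALAT1. The windows lie at chr11:65440839-65440868 and chr11:65506089-65506118, and capitals mark the run.
NEAT1 A run: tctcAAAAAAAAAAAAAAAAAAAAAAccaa
MALAT1 A run: ttctagcttAAAAAAAAAAAAAgcaaaaga

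How much of either RNA was captured through such a run, or through the tail of the short NEAT1 form, was not tested.

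The libraries met the checks on their labels. SNORA28 was 0.92, 0 and 0.64 FPKM in LV-NC 1 to 3 and 15.01, 13.66 and 15.2 FPKM in LV-SNORA28 1 to 3, and it rose by 3.41 on the log2(FPKM + 1) scale (SE 0.23, limma adjusted p = 0.00228). Whether these oligo(dT)-captured reads came from the mature snoRNA or from longer transcripts that hold its sequence was not tested. Markers of epithelial colorectal cells were high, with EPCAM between 96.9 and 115 FPKM and KRT19 between 358 and 412 FPKM. Of 15 markers of fibroblasts, blood cells and endothelium, 14 were at or below 0.190 FPKM in every library, and COL1A1 was between 3.16 and 4.46 FPKM. Read totals were not part of the files, so the depth is unknown and no counting error is given. In the fit over all 12076 genes that averaged 1 FPKM or more, 1076 genes (8.91%) passed an adjusted p of 0.05, 822 (6.81%) higher and 254 (2.10%) lower in LV-SNORA28. Quantile normalization gave 451 higher and 375 lower, and rescaling each library to a common sum gave 1895 higher and 135 lower. The share of the FPKM sum in mitochondrial genes was 42.9%, 47.7% and 42.7% in LV-NC and 38.3%, 37.8% and 35.9% in LV-SNORA28. Labels do not say that libraries of a group came from separate cultures, so p-values measure the spread between these libraries, which may be technical.

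The 8 RNAs spanned a wide range of levels in HCT116 cells. NORAD was the most abundant in all 6 libraries, with a mean of 57.2 FPKM, which was the fifth highest among GENCODE genes of the lncRNA class. MALAT1 followed at 10.6, TUG1 at 6.94, OIP5-AS1 at 5.48, DANCR at 2.39, NEAT1 at 1.46, PVT1 at 1.30 and CYTOR at 0.850 FPKM. Some neighbours in this order could not be separated by their ranges over the 6 libraries. MALAT1 was above TUG1 in 4 of 6 libraries, DANCR above NEAT1 in 5 of 6, and NEAT1 above PVT1 in 3 of 6. The other 4 pairs of neighbours did not overlap, and the largest step, from MALAT1 to NORAD, was 5.41-fold over the 6 libraries, 7.58-fold in LV-NC and 4.12-fold in LV-SNORA28. Within LV-NC alone the mean of PVT1 (1.31 FPKM) was above that of NEAT1 (1.22 FPKM), and MALAT1 was above TUG1 in 1 of 3 libraries.

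These levels place the members unevenly among the 16754 lncRNA genes in the files, of which 520 averaged 1 FPKM or more and 35 averaged 10 FPKM or more. By mean FPKM over the lncRNA class, MALAT1 ranked 32, OIP5-AS1 65, DANCR 188, NEAT1 351, PVT1 401 and CYTOR 623. TUG1 is listed as protein coding in GENCODE release 44, since an open reading frame has been annotated in it, and has no rank in this class. Set against all 12076 genes tested, NORAD was higher than 95.6%, MALAT1 than 72.4%, TUG1 than 59.4%, OIP5-AS1 than 51.3%, DANCR than 23.3%, NEAT1 than 9.19% and PVT1 than 6.35%. CYTOR was below the minimum of 1 FPKM. The word abundant therefore held for NORAD and MALAT1 in these poly(A) libraries, and not for NEAT1, PVT1 or CYTOR.

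**Figure D1:**
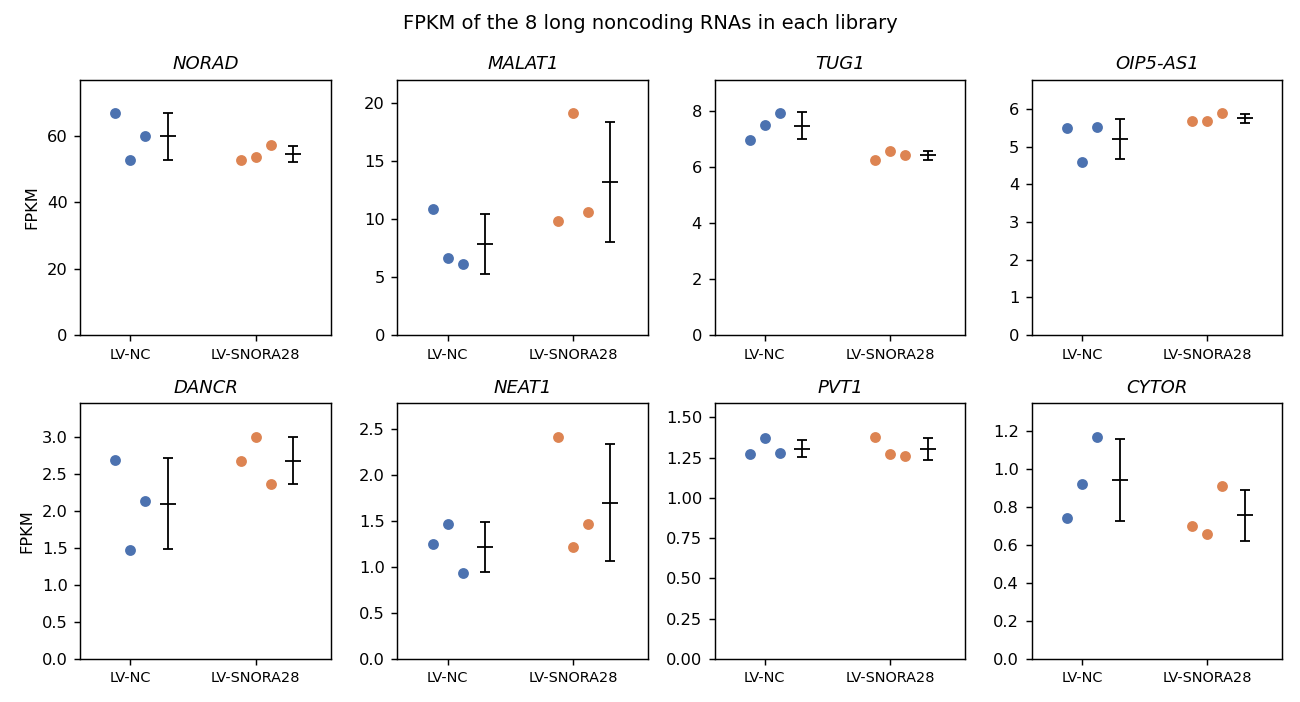
FPKM of each of the 8 long noncoding RNAs in every library, with 1 panel per gene and a linear axis from 0; points are libraries 1 to 3 from left to right, and the bar beside them gives the mean and SD of the group (n = 3). The groups do not overlap for TUG1 and OIP5-AS1, and MALAT1 reaches its highest value, 19.17 FPKM, in LV-SNORA28 2.

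None of the 8 long noncoding RNAs changed between LV-NC and LV-SNORA28 at an adjusted p of 0.05. Of the 7 that passed the filter, 0 were called by limma, against 8.91% of all genes tested and 6.35% of the 520 lncRNA genes tested, and 1 (TUG1, lower) had an unadjusted p below 0.05, against 28.0% of all genes and 6.08% in that direction. CYTOR was read from a fit of all 32761 genes above 0, where 1.21% were called, and it was not among them. Log2 fold changes of the 7 ran from -0.19 to 0.66 with a median of 0.12, beside a median of 0.085 over all genes tested and 0.10 over the lncRNA genes. Groups did not overlap for 2 of the 7, 1 in each direction, beside 27.0% of all genes higher without overlap and 8.16% lower. An exact permutation test of 3 against 3 libraries cannot give a p below 0.1. In bulk RNA such as this, a change in the share of cells that make an RNA and a change in its amount per cell cannot be told apart.

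MALAT1 had the largest log2 fold change of the 8 when all 6 libraries were used. Its level was 10.88, 6.69 and 6.13 FPKM in LV-NC 1 to 3 and 9.87, 19.17 and 10.63 FPKM in LV-SNORA28 1 to 3. The groups overlapped, because LV-NC 1 lay above LV-SNORA28 1 and 3, and the highest value, in LV-SNORA28 2, was 3.13 times the lowest. Means were 7.90 ± 2.60 and 13.2 ± 5.16 FPKM (SD, n = 3), and the log2 fold change was 0.66 (SE 0.29, 95% interval -0.036 to 1.35, limma adjusted p = 0.198). On the fold scale of FPKM + 1 the interval ran from 0.975 to 2.55, so neither no change nor a rise of more than 2-fold lay outside it. Without LV-SNORA28 2 the log2 fold change was 0.38, below that of NEAT1 (0.40), and without LV-NC 1 it was 0.88. Replicate spread of MALAT1 was larger than that of 95.3% of the genes tested, by the residual SD on the log2 scale. An antisense transcript, TALAM1, and another antisense gene cover 83.7% of its exonic bases. Whether strand was used in counting is not given in the sources used here, so reads of MALAT1 and of its antisense partners cannot be told apart unless it was.

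NEAT1, the paraspeckle scaffold, was low and variable. The LV-NC libraries had 1.25, 1.47 and 0.93 FPKM and the LV-SNORA28 libraries 2.42, 1.22 and 1.47 FPKM. Only LV-SNORA28 1 stood above the control range. The log2 fold change was 0.27 (SE 0.18, 95% interval -0.17 to 0.70, limma adjusted p = 0.385), and it was 0.087 without LV-SNORA28 1. Its short and long forms share their 5′ end and are summed in the gene-level value, so the form that paraspeckles need was not measured apart. Spread between replicates exceeded that of 86.3% of the genes tested.

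TUG1, a long noncoding RNA linked to polycomb binding, was the member with the lowest unadjusted p. It was 6.97, 7.51 and 7.92 FPKM in LV-NC and 6.24, 6.58 and 6.41 FPKM in LV-SNORA28. All 3 LV-SNORA28 values were below all 3 control values, and the spread was small in both groups, with a coefficient of variation of 6.38% and 2.65%. The log2 fold change was -0.19 (SE 0.069, 95% interval -0.36 to -0.026, unadjusted p = 0.0296), which missed the threshold after adjustment over all genes (limma adjusted p = 0.132), and the exact permutation p was 0.1, the smallest this design allows. On the fold scale of FPKM + 1 the interval ran from 0.781 to 0.982. When libraries were rescaled to a common sum the difference was -0.067 (adjusted p = 0.636), and under quantile normalization it was -0.29 (adjusted p = 0.0665). The 3 exons of its canonical transcript lie at chr22:30969245-30979395 on the plus strand.

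NORAD, the PUM2 decoy, was 66.84, 52.72 and 60.04 FPKM in LV-NC and 52.56, 53.54 and 57.34 FPKM in LV-SNORA28. Control libraries 1 and 3 were the highest of the 6, and LV-NC 2 lay among the LV-SNORA28 values. Means were 59.9 ± 7.06 and 54.5 ± 2.52 FPKM (SD, n = 3), with a log2 fold change of -0.13 (SE 0.094, 95% interval -0.35 to 0.10, limma adjusted p = 0.426). The sign was not stable, since the difference was 0.018 when libraries were rescaled to a common sum. Without LV-NC 1 it was -0.047, and without LV-NC 2 it was -0.21. About the sequence, 50.8% of the 31-base words of NORAD also occur in the sense direction in transcripts of other genes, and 37.6% of all its words occur in OVCH1-AS1, so shared reads are possible. OVCH1-AS1 itself was between 0.09 and 0.21 FPKM in all 6 libraries.

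OIP5-AS1, the miR-7 decay RNA, lies at chr15:41283958-41322392 on the plus strand. It was 5.49, 4.6 and 5.52 FPKM in LV-NC and 5.68, 5.67 and 5.89 FPKM in LV-SNORA28. The 3 LV-SNORA28 values were all above the control values, LV-NC 1 and 3 lay just under them, and LV-NC 2 was the lowest library. The log2 fold change was 0.12 (SE 0.082, 95% interval -0.072 to 0.32, limma adjusted p = 0.371). It was 0.052 without LV-NC 2, 0.024 under quantile normalization and 0.28 with libraries rescaled to a common sum. Among its annotated forms, some reach the next gene: a read-through gene, ENSG00000285920, takes 14.9% of its 3451 exonic bases from OIP5-AS1 and 85.1% from NUSAP1. Of the 31-base words of the canonical OIP5-AS1 transcript, 50.5% also occur in the sense direction in transcripts of other genes. Shared reads are thus possible here too.

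DANCR was 2.69, 1.47 and 2.13 FPKM in LV-NC and 2.67, 3.00 and 2.36 FPKM in LV-SNORA28. LV-NC 1 lay inside the LV-SNORA28 range and the other two controls below it. The log2 fold change was 0.26 (SE 0.16, 95% interval -0.11 to 0.64, limma adjusted p = 0.327), and without LV-NC 2 it was 0.11. The gene, at chr4:52712325-52723623 on the plus strand, hosts the H/ACA snoRNA SNORA26, which was between 0.05 and 0.11 FPKM in all 6 libraries. In these oligo(dT) libraries, how far such values follow the level of the mature snoRNA was not tested. Of the 31-base words of DANCR, 10.1% occur in the sense direction in transcripts of other genes and 30.8% in the antisense direction.

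PVT1, which lies 51.6 kb from MYC on the same strand at chr8:127794526-128187101, had the narrowest range of the 8 over the 6 libraries. It was 1.27, 1.37 and 1.28 FPKM in LV-NC and 1.38, 1.27 and 1.26 FPKM in LV-SNORA28. All 6 libraries lay within 1.10-fold of each other, and 2.52% of the genes tested had a smaller residual SD on the log2(FPKM + 1) scale. Within LV-SNORA28 its coefficient of variation, 5.11%, was above those of OIP5-AS1 (2.16%), TUG1 (2.65%) and NORAD (4.63%). The log2 fold change was -0.0022 (SE 0.077, 95% interval -0.19 to 0.18, limma adjusted p = 0.988), which on the fold scale of FPKM + 1 ran from 0.879 to 1.13. At this level the added 1 FPKM narrows the interval, and with a pseudocount of 0.1 the SE was 0.13.

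CYTOR, also known as LINC00152, lies at chr2:87454781-87636740 on the plus strand and was the lowest member. It was 0.74, 0.92 and 1.17 FPKM in LV-NC and 0.70, 0.66 and 0.91 FPKM in LV-SNORA28. The groups overlapped, and the fit without a filter gave a log2 fold change of -0.14 (SE 0.12, 95% interval -0.45 to 0.16, limma adjusted p = 0.657). Without LV-NC 3 it was -0.060. A near copy exists on the same chromosome: 79.3% of the 31-base words of CYTOR also occur in MIR4435-2HG, so the counting may have split or shared their reads. MIR4435-2HG was 0.49, 0.56 and 0.67 FPKM in LV-NC and 0.5, 0.59 and 0.53 FPKM in LV-SNORA28, and the groups overlapped as well.

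**Figure D2:**
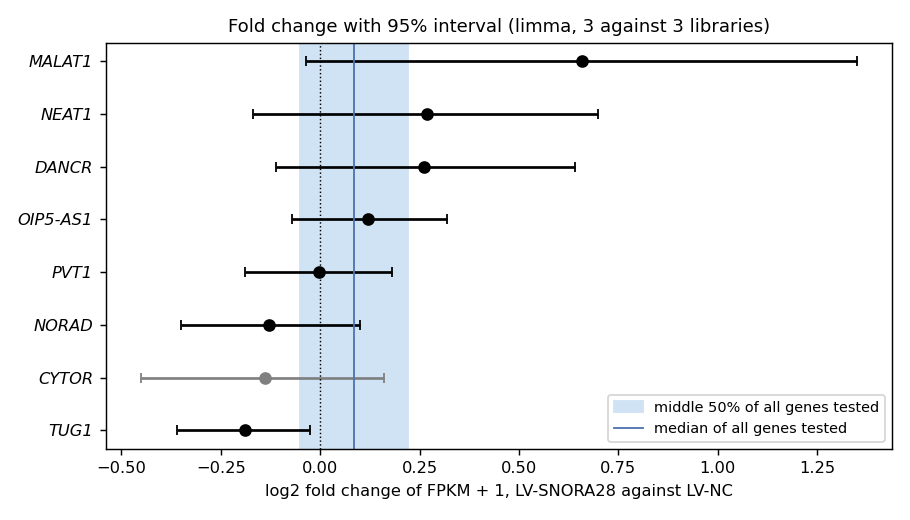
Log2 fold change of FPKM + 1 in LV-SNORA28 against LV-NC for each of the 8 RNAs, with bars for the 95% interval from limma (3 against 3 libraries); CYTOR, in grey, comes from the fit without a filter, the vertical line is the median of all genes tested (0.085) and the band their middle 50% (-0.050 to 0.22). TUG1 is the member whose interval leaves out 0, and the interval of MALAT1 is the widest.

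Because FPKM values depend on all other transcripts of a library, the members were also set against NORAD, their most abundant RNA, within each library. NORAD itself was 59.9 ± 7.06 FPKM in LV-NC and 54.5 ± 2.52 FPKM in LV-SNORA28 (SD, n = 3). Its highest value, 66.84 FPKM, was in LV-NC 1. A ratio to NORAD therefore moves with NORAD as well as with the other member. MALAT1 was 16.3%, 12.7% and 10.2% of NORAD in LV-NC and 18.8%, 35.8% and 18.5% in LV-SNORA28. On this scale the groups stood apart, whereas they overlapped in FPKM. OIP5-AS1 was 8.21%, 8.73% and 9.19% of NORAD in LV-NC against 10.8%, 10.6% and 10.3%, and DANCR was 4.02%, 2.79% and 3.55% against 5.08%, 5.60% and 4.12%. Of the 6 other members tested, these 3 were higher without overlap relative to NORAD, beside 38.1% of all genes tested, and 0 were lower, beside 2.63%. TUG1, NEAT1, PVT1 and also CYTOR overlapped on this scale. NORAD made up 69.5%, 68.7% and 70.5% of the summed FPKM of the 8 RNAs in LV-NC and 64.5%, 58.8% and 66.5% in LV-SNORA28. The sum itself was between 76.8 and 96.1 FPKM and overlapped between the groups.

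**Figure D3:**
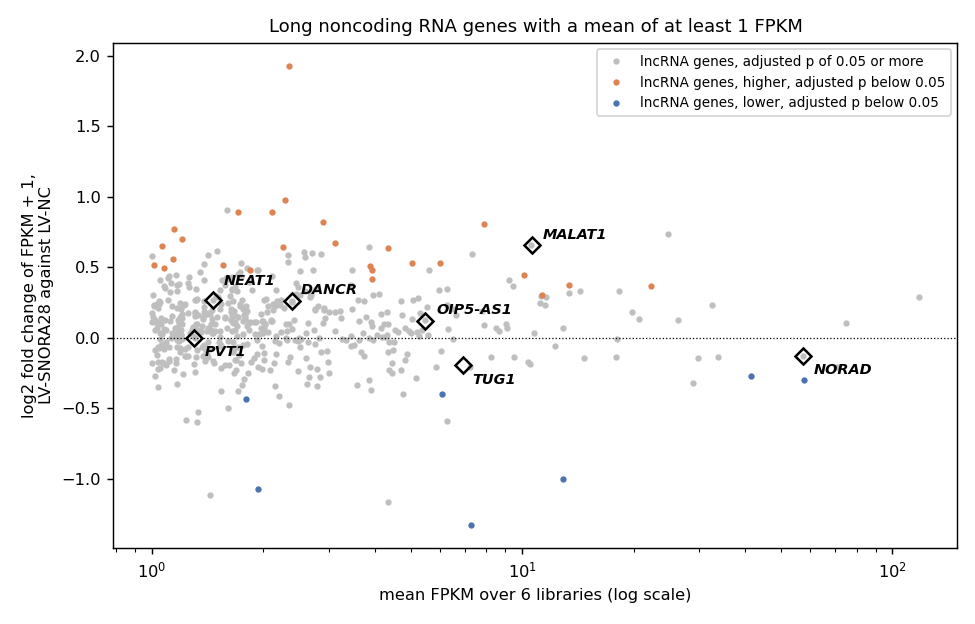
Log2 fold change of FPKM + 1 against mean FPKM (log axis) for the 520 lncRNA genes that averaged 1 FPKM or more, coloured where the adjusted p was below 0.05 (26 higher, 7 lower); diamonds mark the members that passed the filter, TUG1 included although GENCODE lists it as protein coding. Diamonds are drawn alike whatever the adjusted p, which was above 0.05 for every member marked, and MALAT1 lies highest among them.

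The protein partners of the members were examined next. Across the partner and neighbour lists 99 genes were tested and 5 were called, beside 8.91% of all genes. For the paraspeckle list, proteins that NEAT1 assembles, 26 of 26 genes were tested, 1 rose and 1 fell, and the median log2 fold change was 0.056. HNRNPK, an RNA-binding protein of nuclear bodies, was 109 ± 2.34 FPKM in LV-NC and 129 ± 2.54 FPKM in LV-SNORA28 (log2 fold change 0.24, SE 0.051, limma adjusted p = 0.0385). An antisense gene, HNRNPK-AS1, overlaps it (-0.38, limma adjusted p = 0.101). RBM12 fell from 6.36 ± 1.52 to 2.94 ± 0.767 FPKM, by 0.90 on the log2 scale (SE 0.20, limma adjusted p = 0.0425). It overlaps CPNE1 on the same strand, which was not called (0.18, adjusted p = 0.226), so reads could have been divided between the genes. The core proteins NONO, SFPQ and PSPC1, named for their role, had log2 fold changes of 0.29, 0.045 and -0.060 and adjusted p of 0.325, 0.700 and 0.578.

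In the nuclear speckle list, the compartment of MALAT1, 29 of 30 genes were tested and the median was 0.019. SRSF6, a splicing factor of the SR family, rose from 39.4 ± 3.23 to 56.4 ± 1.86 FPKM (log2 fold change 0.51, SE 0.074, limma adjusted p = 0.0138), and 0 genes fell. The tRNA-like end list holds the RNase P subunits and the enzymes that cut and trim such ends. All 13 of its genes were tested, 1 rose and 0 fell, with a median of 0.16. POP1, the largest protein subunit of RNase P, rose from 4.28 ± 0.486 to 6.51 ± 0.787 FPKM (log2 fold change 0.51, SE 0.11, limma adjusted p = 0.0376).

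Among 8 proteins that bind NORAD, 1 rose and 0 fell, and the median was 0.21. KHDRBS1, the RNA-binding protein SAM68, rose from 33.7 ± 1.32 to 41.1 ± 1.80 FPKM (log2 fold change 0.28, SE 0.061, limma adjusted p = 0.0425). PUM2 was 11.63, 8.84 and 14.89 FPKM in LV-NC against 11.93, 15.51 and 17.47 FPKM in LV-SNORA28. The groups overlapped, with a log2 fold change of 0.33 (limma adjusted p = 0.336). Of the 10 genes for OIP5-AS1 binding and miR-7 decay, 0 were called and the median was 0.037. ZSWIM8, the ubiquitin ligase adaptor of miR-7 decay, was 7.67, 5.55 and 6.34 FPKM in LV-NC and 5.48, 4.70 and 4.93 FPKM in LV-SNORA28 (log2 fold change -0.31, adjusted p = 0.144). AGO2, which carries microRNAs, was 6.38 ± 1.46 against 9.29 ± 1.24 FPKM (0.49, adjusted p = 0.117). The related AGO1, AGO3 and AGO4 had log2 fold changes of 0.62, 0.038 and 0.018. The polycomb and nucleolin list also had 0 of 4 called, with EZH2 at 13.1 ± 0.552 against 15.6 ± 0.322 FPKM (0.24, adjusted p = 0.0574). Log2 fold changes of SUZ12, EED and NCL, the rest of that list, were 0.37, 0.054 and -0.016.

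Several of these calls lay near the threshold. HNRNPK, POP1 and KHDRBS1 were called in 0 of the 6 fits that left out 1 library, with adjusted p between 0.0717 and 0.120, 0.0702 and 0.107, and 0.0755 and 0.135; the calls over all genes also fell, from 1076 to between 279 and 628. Under quantile normalization with all 6 libraries, these 3 genes had adjusted p of 0.0583, 0.0836 and 0.0976. RBM12 was called in 1 of these fits (0.0471 to 0.117). SRSF6 was called in 4 of 6, with adjusted p up to 0.0610 without LV-SNORA28 2. The direction of these 5 genes was the same in every alternative run.

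**Figure D4:**
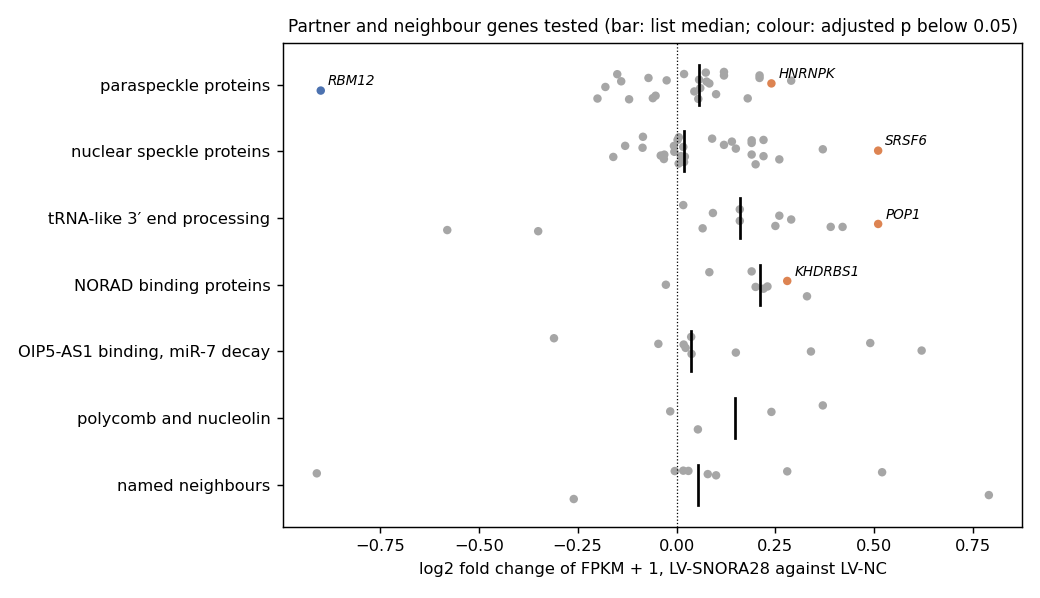
Log2 fold change of FPKM + 1 in LV-SNORA28 against LV-NC for each tested gene of the 7 partner and neighbour lists; each point is a gene, black bars are list medians, and colour marks an adjusted p below 0.05. The 4 higher calls and 1 lower call named in the plot lie in 4 lists, and list medians lie between 0.019 and 0.21.

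The genes next to the members, or overlapping them, were examined in the same fit. The nearest tested gene on each side and all tested genes that overlap a member made up 21 genes, of which 0 passed the threshold, beside 8.91% of all genes tested. Some of the nearest tested genes were far away, such as CYRIB, 1652 kb from PVT1, and KRCC1, 390 kb from CYTOR. MORC2, which starts 471 bases from TUG1 on the opposite strand, was 3.85, 3.30 and 3.85 FPKM in LV-NC against 4.11, 3.72 and 3.94 FPKM (0.079, limma adjusted p = 0.571). OIP5, antisense to OIP5-AS1, was 9.34 ± 0.540 against 11.6 ± 1.30 FPKM (0.28, limma adjusted p = 0.111), higher without overlap as were 27.0% of all genes tested. FRMD8, which lies 9.25 kb from NEAT1, was 8.30 and 8.21 FPKM in LV-SNORA28 1 and 2 but 3.20 FPKM in LV-SNORA28 3, beside 3.69 to 4.52 FPKM in LV-NC (0.52, limma adjusted p = 0.325).

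At the far end of OIP5-AS1, 2 overlapping genes differed between libraries in opposite directions. NUSAP1, a spindle protein gene whose start overlaps OIP5-AS1, was 11.4, 20.46 and 26.29 FPKM in LV-NC and 28.58, 34.76 and 34.66 FPKM in LV-SNORA28 (log2 fold change 0.79, limma adjusted p = 0.123). The read-through gene that shares its exons was 12.39, 7.17 and 0.13 FPKM in LV-NC and 0, 0.09 and 0 FPKM in LV-SNORA28. High values of the read-through gene therefore stood in the libraries where NUSAP1 was low. Their sum was 23.79, 27.63 and 26.42 FPKM in LV-NC against 28.58, 34.85 and 34.66 FPKM. A small annotated RNA of 87 bases inside TUG1, ENSG00000276057, likewise was 9.01 FPKM in LV-NC 1 and 8.41 FPKM in LV-SNORA28 1 but at most 0.11 FPKM in the other four libraries. TUG1 was the lowest of its group in each of those 2 libraries. Whether the assignment of reads to such overlapping features moved the values of OIP5-AS1 or TUG1 was not tested.

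MYC, the gene before PVT1, was 5.39, 4.98 and 42.37 FPKM in LV-NC and 5.04, 5.59 and 5.29 FPKM in LV-SNORA28. LV-NC 3 stood apart from the other five libraries, and the comparison (log2 fold change -0.91, limma adjusted p = 0.468) rests on it. PVT1 in LV-NC 3 was 1.28 FPKM, inside the range of the other libraries.

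The genes whose log2 values ran most like each member over the 6 libraries were different for every member. With 6 libraries such a likeness is a description only, and it was sought over genes that averaged 5 FPKM or more. Many genes came close: r was above 0.9 for between 14 genes (PVT1) and 212 genes (OIP5-AS1) per member. For MALAT1 the gene was SUCLG1, a mitochondrial enzyme subunit (Pearson r = 0.982), for NEAT1 SBK1 (0.984), and for TUG1 SRPRA, a subunit of the signal recognition particle receptor (0.991). NORAD was closest to MYOF (0.973), OIP5-AS1 to the kinase gene YES1 (0.997), PVT1 to ATP5F1D (0.979), CYTOR to PRELID1 (0.987) and DANCR to the tubulin gene TUBB3 (0.990). The size of the differences was not alike even where the correlation was high. YES1 was 17.24, 6.44 and 17.73 FPKM in LV-NC and 21.26, 21.77 and 24.2 FPKM in LV-SNORA28, a much wider range than that of OIP5-AS1. None of the 8 genes was called between the groups, with adjusted p from 0.0530 for SRPRA to 0.832 for ATP5F1D.

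**Figure D5:**
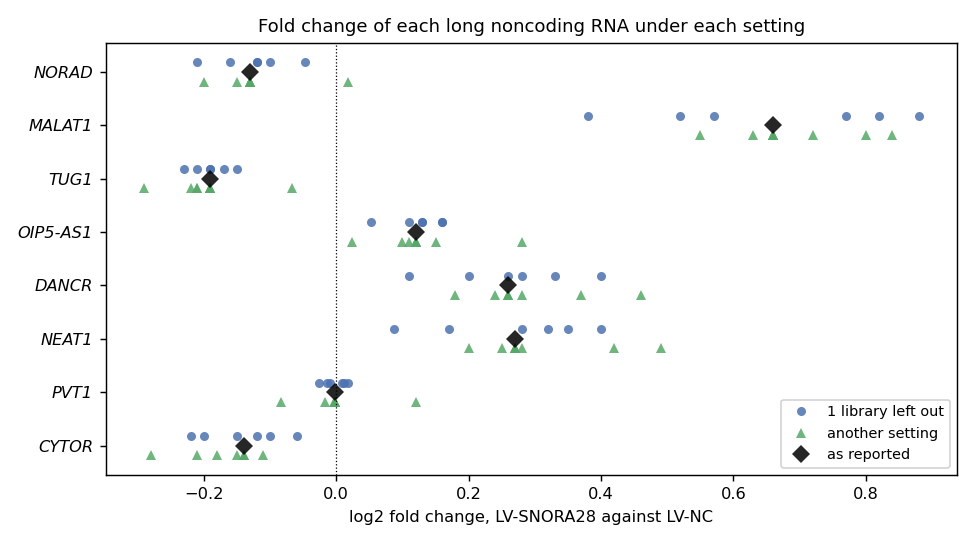
Log2 fold change of each of the 8 RNAs in LV-SNORA28 against LV-NC as reported (diamonds), with 1 library left out (circles) and under another scaling, filter, pseudocount or model (triangles). MALAT1, NEAT1, DANCR and OIP5-AS1 stay above 0 and TUG1 and CYTOR below 0 under every setting, while NORAD and PVT1 cross it.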

How the data were processed

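Poly(A) RNA of HCT116 cells was sequenced in 6 libraries (LV-NC 1 to 3, LV-SNORA28 1 to 3), grouped by their titles. Per library, the authors deposited gene-level FPKM values of 60612 Ensembl genes. The submitters' processing notes name cutadapt 1.9, HISAT2 2.2.1, StringTie 2.1.6, DESeq2, edgeR and hg38 without their roles; the annotation release and the use of strand are not given in the sources used here. Symbols, models and coordinates came from GENCODE release 44 (GRCh38), which matched 60401 genes, and may differ from the annotation behind the values. The most similar libraries differed in 26342 genes.

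Values were taken as log2(FPKM + 1). Genes averaging 1 FPKM or more (12076) were fitted with limma 3.58.1 in R 4.3.3 (trended eBayes, two-sided, Benjamini-Hochberg adjustment over all genes fitted), and genes with an adjusted p below 0.05 were called. Fold changes on this scale understate changes of low genes. CYTOR, below the filter, was read from a fit of all 32761 genes above 0. The script was tested on simulated data. Deviations from group means of same-numbered libraries correlated at -0.0441, 0.0914 and 0.00983, so no broad pairing by number was seen. These correlations cannot exclude that same-numbered libraries were prepared together.

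Text names the 8 members, the called genes of each list (up to 3 per direction), the nearest and overlapping tested genes, and the closest pattern per member; further partners and neighbours were named for their role with values in view. The members and lists were chosen with earlier results of these data known. Alternatives changed the scaling (quantile normalization, or FPKM rescaled per library to a common sum over all or over non-mitochondrial genes), filter, pseudocount, trend, weights or block, or left out 1 library. Motifs and 31-base words were counted in canonical GENCODE transcripts, and end regions are the last bases of canonical transcripts of tested genes at least as long as the member.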

Additional observations from a re-analysis of the deposited data

How the results depend on the processing

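The count of members called was 0 under every alternative. Of 115 member fold changes recomputed, 110 kept their direction and their side of the threshold and 5 changed sign. NORAD became 0.018 with libraries rescaled to a common sum. PVT1, between -0.026 and 0.017 when 1 library was left out, became 0.12 under that rescaling, 0.017 without LV-NC 2, 0.0081 without LV-SNORA28 2 and 0.011 without LV-SNORA28 3. That rescaling moved the median of all genes from 0.085 to 0.24, and relative to the median as deposited MALAT1 was at 0.57, NORAD at -0.21 and TUG1 at -0.28. The number of all genes called, 1076, became 2030 under that rescaling. It was 397 with no filter (32761 genes tested), and 279 to 628 when 1 library was left out. With the replicate block it was 510, and 0 members were called. Whether same-numbered libraries were prepared together is not known.

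Partner and neighbour genes called, 5, became 16 when rescaled to a common sum, 3 under quantile normalization, 3 when rescaled outside the mitochondrial genome, 8 among genes averaging 5 FPKM or more, 1 with no filter, 2 with the replicate block, and 0 to 3 when 1 library was left out (0 without LV-SNORA28 2). Apart from the smaller or larger sets tested, the cause was not tested. Depth is unknown, so no counting error could be given for low values such as those of NEAT1, PVT1 and CYTOR.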

Other observations

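A longer list of other named long noncoding RNAs was read from the same fit. Of 47 genes listed, 44 were in the files and 11 passed the filter of 1 FPKM; 2 rose and 0 fell, beside 6.35% of the lncRNA genes tested that were called in either direction, and the median log2 fold change of the 11 was 0.27. UCA1, an RNA known from bladder and colorectal cancer, was 5.77, 5.17 and 5.45 FPKM in LV-NC and 11.3, 10.68 and 9 FPKM in LV-SNORA28, without overlap. Its log2 fold change was 0.80 (SE 0.094, limma adjusted p = 0.00823), and it was called in 6 of 6 fits with 1 library left out (adjusted p 0.0175 to 0.0390) and under every other alternative.

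GABPB1-AS1, which is antisense to the transcription factor gene GABPB1, was 3.08, 2.93 and 3.08 FPKM in LV-NC and 4.77, 4.4 and 5.05 FPKM in LV-SNORA28. The log2 fold change was 0.51 (SE 0.073, limma adjusted p = 0.0132), and it was called in 5 of 6 fits with 1 library left out, with an adjusted p of 0.0571 without LV-SNORA28 3. GABPB1 itself had a log2 fold change of 0.021 (limma adjusted p = 0.912). Reads of the pair cannot be told apart where they overlap, unless strand was used in counting. THAP9-AS1, chosen after its values were seen, was 11.9 ± 1.30 against 15.0 ± 0.647 FPKM (0.32, limma adjusted p = 0.0747).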
